A study of Mus musculus with 24 samples.

Results

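Oxidative phosphorylation is the process by which mitochondria pass electrons from nutrients along complexes I, II, III and IV of the inner membrane and use the proton gradient so formed to make ATP at complex V. Complex I (NADH dehydrogenase) and complex II (succinate dehydrogenase) feed electrons in, complex III (the cytochrome bc1 complex) passes them to the small carrier cytochrome c, complex IV (cytochrome c oxidase) gives them to oxygen, and complex V is the ATP synthase. Macrophages activated by LPS and interferon-γ are known for moving their energy metabolism towards glycolysis while inducible nitric oxide synthase makes nitric oxide, a known inhibitor of cytochrome c oxidase.

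The nuclear genes for these complexes were followed on Illumina arrays in bone marrow-derived macrophages of C57bl/6J adult female mice. Gch1fl/flTie2cre mice lack exons of the floxed Gch1 gene, which encodes the first enzyme of tetrahydrobiopterin (BH4) synthesis, in the cells where the Tie2 promoter drives Cre, namely endothelial and bone marrow-derived cells. Their controls, called wild-type (WT), were Gch1fl/fl mice without Cre, so that floxed alleles were carried by both groups. LPS and interferon-γ were given to the macrophages together, and cells were harvested at 0, 2, 8 and 24 h. There were 3 animals of each genotype (Gch1fl/flTie2cre animals 1, 4 and 5, and WT animals 2, 3 and 6), each measured at all 4 times, which gave 24 arrays in 8 groups of 3.

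Genes were chosen by symbol: Sdha to Sdhd, Cyc1, Cycs, and all symbols beginning with Nduf, Uqcr, Atp5 or Cox4 to Cox8. The arrays named 89 such genes, of which 80 had a probe that passed the detection filter, out of 8875 genes tested. Each gene was read by its brightest tested probe. The 80 comprised 33 subunits of complex I (5 core subunits, which carry out catalysis, and 28 accessory ones), 7 assembly factors of complex I, 3 subunits of complex II, 7 of complex III, cytochrome c (Cycs), 12 of complex IV with Ndufa4 counted there, 16 of complex V, and Ndufs5-ps, a transcribed pseudogene. The 9 that did not pass were Cox4i2, Cox6b2, Cox7b2, Cox8b, Cox8c, Ndufaf6, Ndufs1, Sdha and Uqcrfs1, and 8 of these were detected on 0 arrays. Cox6b2 was detected on 2. Of the 80, 76 were detected on all 24 arrays, and Cox6a2, Ndufaf3, Ndufaf7 and Ndufb11 on 20, 21, 17 and 12. Among the mitochondrially encoded subunits 0 of 13 were named by a probe. Levels are normalized log2 intensities, which can be compared between arrays for a probe but not between probes, and rising or falling means an adjusted p below 0.05 and a change above 1.5-fold in the fit across all probes.

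Mean intensity per array ran between 593.1 and 1750, and 27.04 to 33.3% of probes were detected. Gch1 differed by -2.55, -2.23, -2.60 and -1.86 (log2) between Gch1fl/flTie2cre and WT cells at 0, 2, 8 and 24 h, with limma adjusted p between 0.000606 and 0.00959; whether its probe lies within the deleted exons is not given in the sources used here. All 7 macrophage markers with a probe were detected on at least 3 arrays, against 0 of 4 T cell, 0 of 3 B cell, 0 of 5 fibroblast or endothelial, 0 of 2 erythroid, 1 of 4 dendritic cell and 3 of 5 neutrophil markers. Between 24 and 0 h the 3 neutrophil genes (Camp, Ltf and Ngp) had medians of -2.06 in Gch1fl/flTie2cre and -1.87 in WT cells with 0 called, and their summed intensity was 465.8 to 943.7 at 24 h and 529.2 to 2459 at 0 h in Gch1fl/flTie2cre cells, and 434.5 to 1077 at 24 h and 564 to 1806 at 0 h in WT cells, where that of the 7 macrophage markers was 117931 to 152237 in Gch1fl/flTie2cre and 117526 to 131379 in WT cells at 0 h. Their part in the results was not tested. In bulk arrays, less RNA per cell and fewer cells of a type cannot be told apart. Animal 5 (Gch1fl/flTie2cre) and animal 6 (WT) stood apart from the other 4 animals at each time: over all tested probes their deviations from the group means correlated with r of 0.759, 0.756, 0.73 and 0.809 at 0, 2, 8 and 24 h, whereas their highest correlation with animals 1 to 4 was -0.465, -0.474, -0.321 and -0.379. The deviations of the 3 arrays of a group sum to 0, which by itself makes correlations within a group negative. The negative values are thus not a separate result beside the correlation of animals 5 and 6. All these values describe the arrays and carry no test, and the main counts below are given with and without both animals. What sets these animals apart is not stated in the labels.

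In both genotypes the respiratory genes were shifted downwards at 8 h. At 24 h the median over each genotype lay near the starting level, although the median change from 0 h was -0.27 in animal 5 and -0.38 in animal 6. In the main fit none of the genes differed between the genotypes past the threshold at any time. At 8 h the median change from 0 h over the 80 genes was -0.37 in Gch1fl/flTie2cre cells and -0.38 in WT cells, where the median over all genes tested was -0.06 and -0.05. The values of 70 genes in Gch1fl/flTie2cre cells and 71 in WT cells lay below 0. The shift was shallow for most genes and few passed the 1.5-fold threshold: 16 fell and 3 rose in Gch1fl/flTie2cre cells, and 14 fell and 2 rose in WT cells. Among all genes tested, 19.2% fell and 15.8% rose in Gch1fl/flTie2cre cells, and 16.6% fell and 14.7% rose in WT cells. Without animals 5 and 6, 23 fell and 2 rose in Gch1fl/flTie2cre cells and 20 fell and 2 rose in WT cells.

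**Figure D1:**
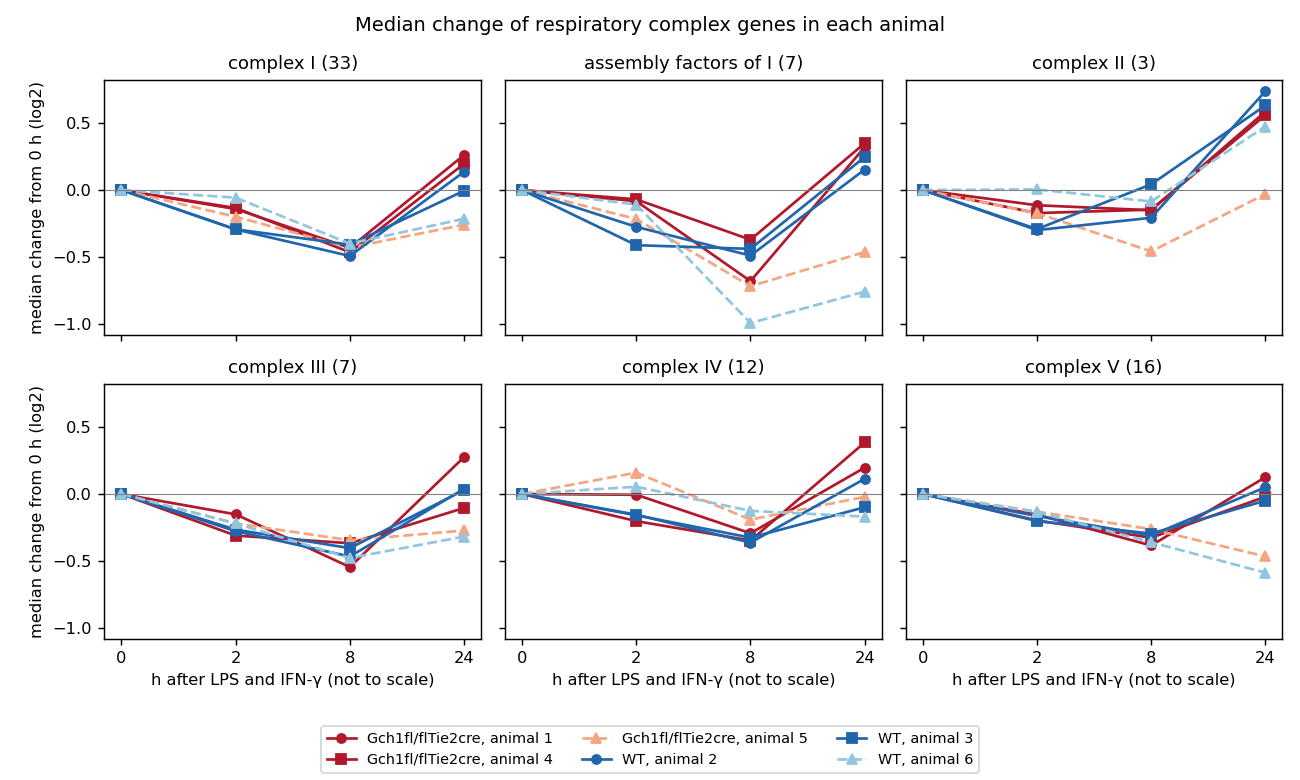
Median change from 0 h (log2, vertical axis) of the tested genes of each complex against time after LPS and interferon-γ (horizontal axis, h), 1 line per animal; red lines are Gch1fl/flTie2cre and blue lines WT, and the pale dashed lines are animals 5 and 6. In all 6 animals the complex I median at 8 h lay below 0, between -0.49 and -0.40, and at 24 h it was -0.26 and -0.21 in animals 5 and 6 and between -0.01 and 0.26 in the other 4.

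The shift at 8 h was present in each animal. The median change over the 80 genes was -0.37, -0.38 and -0.34 in Gch1fl/flTie2cre animals 1, 4 and 5, and -0.43, -0.39 and -0.34 in WT animals 2, 3 and 6. The share of the summed raw intensity of an array that came from the 80 probes was taken before background correction and normalization. It is relative to all other probes, and so also falls where those gain intensity. In Gch1fl/flTie2cre cells the share was 1.05, 1.009 and 1.245% at 8 h against 1.302, 1.38 and 1.422% at 0 h. In WT cells the share was 1.044, 1.098 and 1.254% at 8 h against 1.308, 1.356 and 1.436% at 0 h. The 8 h arrays of each genotype lay below the 0 h arrays without overlap. The share of probes detected was also lower at 8 h (27.04 to 29.08%) than at 0 h (30.41 to 33.3%), and its part in the result was not tested.

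By complex, the median change at 8 h was -0.44 in Gch1fl/flTie2cre and -0.47 in WT cells for complex I, -0.19 and -0.06 for complex II, -0.37 and -0.41 for complex III, -0.22 and -0.26 for complex IV, and -0.34 and -0.32 for complex V. With the deposited values complex IV was at -0.06 and -0.10, and complex V in Gch1fl/flTie2cre cells at -0.15. Calls were made in complexes I, III and V and in the assembly factors of complex I in both genotypes. No subunit of complex II passed in either genotype, and in complex IV 0 of 12 passed in Gch1fl/flTie2cre cells and 1 of 12 in WT cells.

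In complex I, Ndufs8, a core iron-sulfur subunit of the module that reduces ubiquinone, read 10.96, 10.98 and 11.28 at 8 h against 11.93, 12.25 and 12.16 at 0 h in Gch1fl/flTie2cre animals 1, 4 and 5. In WT animals 2, 3 and 6 it read 10.95, 11.22 and 11.21 at 8 h against 12.005, 12.36 and 11.79 at 0 h. The times did not overlap in either genotype, and Ndufs8 fell by 1.04 ± 0.16 in Gch1fl/flTie2cre cells and by 0.92 ± 0.16 in WT cells (log2 ± SE, n = 3; limma adjusted p = 5.92e-05 and 0.000211). Ndufb10, an accessory subunit of the membrane arm, fell by 0.87 and 0.79 (limma adjusted p = 0.000134 and 0.000372), and its second tested probe gave -0.91 and -1.13 (limma adjusted p = 0.00538 and 0.00115). Ndufb11 fell in Gch1fl/flTie2cre cells to 6.49, 6.79 and 5.75, against 7.50, 7.69 and 7.28 at 0 h, but was detected on 0 of 3 arrays at 8 h, so that only a bound of at least 1.44-fold lower can be given for it. Bounds of this kind set the dim arrays at the lowest intensity detected there, or at the probe's own value where that is higher.

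Ndufs4 and Cycs moved the other way in both genotypes. Ndufs4 encodes an accessory subunit of the NADH-oxidizing arm that is needed for a stable complex I. It read 13.21, 13.09 and 13.74 at 8 h against 12.26, 12.22 and 12.32 at 0 h in Gch1fl/flTie2cre cells, and 13.22, 13.10 and 13.62 at 8 h against 12.13, 12.21 and 12.57 at 0 h in WT cells. Every 8 h array was above every 0 h array, and Ndufs4 rose by 1.08 ± 0.18 and 1.02 ± 0.18 (log2 ± SE, n = 3; limma adjusted p = 0.000142 and 0.000272). Its 3 other tested probes also rose, by 1.13 to 1.44 in Gch1fl/flTie2cre cells and by 1.19 to 1.36 in WT cells, with limma adjusted p of at most 0.000475 in each case.

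Cycs, the mobile electron carrier between complexes III and IV, which also takes part in apoptosis once released from mitochondria, read 13.40, 13.48 and 13.56 at 8 h against 12.76, 12.74 and 12.89 at 0 h in Gch1fl/flTie2cre cells. In WT cells it read 13.24, 13.51 and 13.39 at 8 h against 12.70, 12.66 and 12.66 at 0 h. The arrays did not overlap, and Cycs rose by 0.69 ± 0.13 and 0.71 ± 0.13 (log2 ± SE, n = 3; limma adjusted p = 0.000547 and 0.000454). Of its other tested probes, 1 gave 1.09 and 0.97 (limma adjusted p = 0.000474 and 0.00143) and 1 gave 0.57 and 0.66, which did not pass (limma adjusted p = 0.0853 and 0.0509). Ndufs3, a core subunit of the same module as Ndufs8, rose by 0.70 in Gch1fl/flTie2cre cells (limma adjusted p = 0.00527) and differed by 0.58 in WT cells, short of the fold threshold. Uqcrq, a small subunit of complex III, was the only subunit of that complex above 0 in both genotypes (0.42 in Gch1fl/flTie2cre and 0.39 in WT cells, limma adjusted p = 0.024 and 0.0345) and stayed under the fold threshold.

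Of the assembly factors, which help to build complex I and are not part of the finished enzyme, 3 of 7 fell at 8 h and were the same 3 in both genotypes. Ndufaf4 read 8.00, 7.80 and 7.91 at 8 h against 9.47, 9.32 and 9.14 at 0 h in Gch1fl/flTie2cre cells, and 8.35, 8.90 and 8.02 at 8 h against 9.46, 9.71 and 9.55 at 0 h in WT cells. It fell by 1.41 and 1.15 (log2; limma adjusted p = 0.00308 and 0.0131), with its second tested probe at -1.60 and -1.29. Ndufaf2 fell by 1.42 and 1.13 (limma adjusted p = 0.00226 and 0.0117). Ndufaf7, a methyltransferase that modifies a core subunit of complex I, fell in both genotypes (-1.71 and -1.40, limma adjusted p = 0.00056 and 0.00326), and since it was detected on 0 of 3 arrays at 8 h in both genotypes, its change is bounded only as at least 1.31-fold lower in Gch1fl/flTie2cre and at least 1.47-fold lower in WT cells.

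In complex III, the small accessory subunits Uqcr11 and Uqcr10 fell in both genotypes. Uqcr11 fell by 0.93 in Gch1fl/flTie2cre and 0.98 in WT cells (log2; limma adjusted p = 0.00614 and 0.00462), and Uqcr10 by 0.69 and 0.66 (limma adjusted p = 0.00223 and 0.00333). Uqcrh, the hinge protein that helps cytochrome c to dock, fell by 0.63 in WT cells (limma adjusted p = 0.00361). Cyc1, the cytochrome c1 subunit that hands electrons to cytochrome c, was at -0.26 in Gch1fl/flTie2cre and -0.11 in WT cells and did not pass at any time. In complex V, Atp5g2, which encodes a form of the c subunit that makes up the turning ring, read 10.37, 10.17 and 10.41 at 8 h against 11.30, 11.37 and 11.87 at 0 h in Gch1fl/flTie2cre cells. In WT cells it read 10.55, 10.65 and 10.72 at 8 h against 11.47, 11.67 and 11.36 at 0 h. The arrays did not overlap and Atp5g2 fell by 1.20 ± 0.19 and 0.86 ± 0.19 (log2 ± SE, n = 3; limma adjusted p = 5.79e-05 and 0.00151). Atp5g3, which encodes the same mature c subunit with another targeting sequence, was at -0.30 and -0.22 and did not pass, and Atp5g1 was named by no probe.

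**Figure D2:**
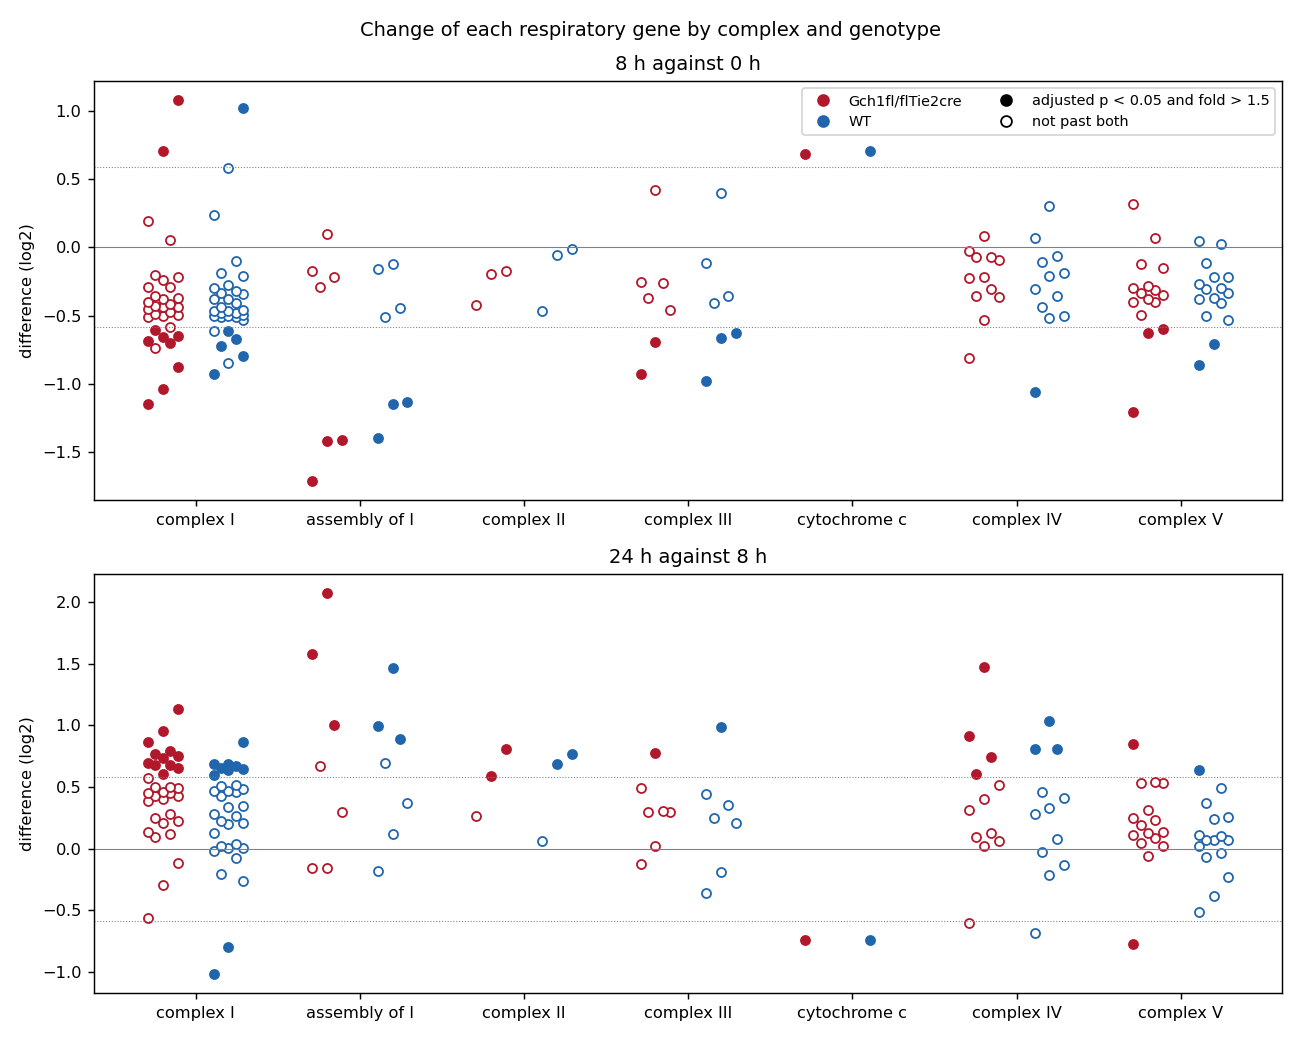
Difference in normalized log2 intensity (vertical axis) of each tested gene between 8 and 0 h (upper panel) and between 24 and 8 h (lower panel), by complex (horizontal axis), with Gch1fl/flTie2cre in red left of WT in blue and the pseudogene left out; 1 point per gene, filled where it rose or fell, and dotted lines at the 1.5-fold limit. Most points lie below 0 but above the lower dotted line in the upper panel, with Ndufs4 at 1.08 and 1.02 highest, and above 0 in the lower panel (with the pseudogene, 70 of 80 in Gch1fl/flTie2cre and 60 of 80 in WT cells).

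The genotypes come from different animals, and their calls at 8 h were compared: 9 genes fell in both, 56.2% of the 16 that fell in Gch1fl/flTie2cre and 64.3% of the 14 that fell in WT cells, against 73.7 and 85% for all genes that fell, with 0 genes called in opposite directions. At 2 h, 61 of 80 genes in Gch1fl/flTie2cre and 70 of 80 in WT cells lay below 0, with medians of -0.14 and -0.19 (-0.11 and -0.10 over all genes). In WT cells 5287 of all 8875 genes lay below 0. With the deposited values the medians of the 80 were -0.05 and -0.12, against -0.14 and -0.12 over all genes. With another normalization (cyclic loess) they were -0.06 and -0.10, against -0.06 and -0.06. Few were called: 1 of 80 fell in Gch1fl/flTie2cre cells (Ndufaf4, -0.99, limma adjusted p = 0.0489) and 1 in WT cells (Uqcrq, -0.70, limma adjusted p = 0.00141), and 0 rose in either. Over all genes, 10.7% fell and 6.31% rose at 2 h in Gch1fl/flTie2cre cells, and 9.67% fell and 6.57% rose in WT cells. At an unadjusted p under 0.05, 8 of 80 passed in each genotype (10%), against 31.2% of all genes in Gch1fl/flTie2cre and 30.4% in WT cells. The Ndufaf4 call at 2 h was lost when any one of animals 1 to 5 was left out, although the arrays did not overlap, at 8.29, 8.502 and 8.17 at 2 h and 9.47, 9.32 and 9.14 at 0 h.

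Between 8 and 24 h the direction turned. In Gch1fl/flTie2cre cells 23 of 80 genes rose and 2 fell, with a median of 0.40, and in WT cells 18 rose and 3 fell, with a median of 0.25. Of all genes tested, 17.9% rose and 13.7% fell in Gch1fl/flTie2cre cells, and 16.6% rose and 12.4% fell in WT cells, with medians of 0.05 and 0.06. With the deposited log2 values the median of the 80 was 0.32 in Gch1fl/flTie2cre and 0.08 in WT cells, against 0.08 and 0.06 over all genes. These comparisons use the same 8 h arrays as the comparison of 8 with 0 h, so that the values of both are given side by side and not as independent results. Without animals 5 and 6 the counts were 38 higher and 2 lower in Gch1fl/flTie2cre cells (median 0.58) and 28 higher and 4 lower in WT cells (median 0.42).

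The increase differed between animals. The median change between 8 and 24 h was 0.54, 0.54 and 0.12 in Gch1fl/flTie2cre animals 1, 4 and 5, with 72, 71 and 44 of 80 genes above 0. In WT animals 2, 3 and 6 it was 0.37, 0.38 and -0.05, with 65, 57 and 34 genes above 0. Animals 5 and 6, 1 of each genotype, were the lowest of their genotypes. In complex V their medians were -0.24 and -0.10, against 0.43 and 0.35 in animals 1 and 4 and 0.25 and 0.18 in animals 2 and 3. The raw share of signal was likewise lowest in animals 5 and 6, at 1.466, 1.454 and 1.231% in animals 1, 4 and 5 and 1.459, 1.392 and 1.125% in animals 2, 3 and 6 at 24 h.

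Complex I, the largest of the complexes, held the largest number of genes that rose between 8 and 24 h, 12 of 33 in Gch1fl/flTie2cre and 8 of 33 in WT cells. Ndufs7, the core iron-sulfur subunit next to the ubiquinone site, rose in Gch1fl/flTie2cre cells to 12.84, 12.997 and 12.87 at 24 h, against 11.79, 11.66 and 11.86 at 8 h (1.13 ± 0.15, log2 ± SE, n = 3; limma adjusted p = 9.33e-06). In WT cells Ndufs7 read 12.62, 12.40 and 12.48 at 24 h against 12.03, 12.04 and 12.05 at 8 h, a difference of 0.46 that stayed under the fold threshold. Ndufb3, an accessory subunit of the membrane arm, rose by 0.95 in Gch1fl/flTie2cre and 0.68 in WT cells (limma adjusted p = 0.000575 and 0.00873), Ndufb4 rose by 0.86 in Gch1fl/flTie2cre cells, and Ndufa13, also known as GRIM-19, rose by 0.68 and 0.87 (limma adjusted p = 0.000631 and 7.74e-05). Of the assembly factors, Ndufaf4 rose by 1.58 and 0.99 (limma adjusted p = 0.00125 and 0.0317), and Ndufaf7 by at least 1.69-fold in Gch1fl/flTie2cre and at least 1.54-fold in WT cells. In WT cells Ndufaf7 was detected on only 2 of 3 arrays at 24 h, so that its bound is less certain there.

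Sdhb, the iron-sulfur subunit of complex II, and Sdhd, one of its membrane anchors, rose late in both genotypes. Sdhb read 12.34, 12.27 and 12.11 at 24 h against 11.42, 11.56 and 11.30 at 8 h in Gch1fl/flTie2cre cells, and 12.20, 12.21 and 12.06 at 24 h against 11.46, 11.71 and 11.24 at 8 h in WT cells. Sdhb rose by 0.81 ± 0.15 and 0.69 ± 0.15 (log2 ± SE, n = 3; limma adjusted p = 0.000351 and 0.00171), and its 2 other tested probes gave 0.83 in Gch1fl/flTie2cre cells and 0.51 and 0.61 in WT cells. Sdhd rose by 0.59 and 0.77 (limma adjusted p = 0.0106 and 0.00165). Sdhc, the other anchor, did not pass at any time, and Sdha, the flavoprotein, had no probe past the filter.

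Uqcr10 rose by 0.78 in Gch1fl/flTie2cre and 0.98 in WT cells between 8 and 24 h (limma adjusted p = 0.000829 and 0.000112), as did its second probe (0.68 and 1.08). In complex IV, Cox5a, a subunit on the matrix side, rose by 0.74 and 0.81 (limma adjusted p = 0.00249 and 0.00145), and Cox6a1, the liver-type isoform, by 0.61 and 0.81 (limma adjusted p = 0.00565 and 0.000688). In complex V, Atp5c1, the central shaft, rose by 0.85 and 0.64 (limma adjusted p = 0.00109 and 0.0102). Cycs fell again by 0.75 and 0.74 (limma adjusted p = 0.000248 and 0.000305), and Ndufs4 was at -0.56 in Gch1fl/flTie2cre cells (limma adjusted p = 0.0217, under the fold threshold) and fell by 0.80 in WT cells (limma adjusted p = 0.00237). The genes that rose in both genotypes numbered 15, 65.2% of the 23 in Gch1fl/flTie2cre and 83.3% of the 18 in WT cells, against 72.5 and 78% for all genes that rose.

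At 24 h against 0 h few genes were called. In Gch1fl/flTie2cre cells 5 of 80 rose and 5 fell, and in WT cells 4 rose and 7 fell, where 17.5% of all genes rose and 15.7% fell in Gch1fl/flTie2cre cells and 17.7% rose and 15.2% fell in WT cells. The median of the 80 was 0.04 in Gch1fl/flTie2cre and -0.10 in WT cells, and without animals 5 and 6 it was 0.21 and 0.09, with 12 higher and 4 lower in Gch1fl/flTie2cre and 6 higher and 7 lower in WT cells. Neither sign was stable: the Gch1fl/flTie2cre median was -0.07 without animal 1 and -0.03 without animal 4, and the WT median was 0.09 without animal 6 and 0.02 with array weights. In single animals the median change was 0.21, 0.21 and -0.27 in Gch1fl/flTie2cre animals 1, 4 and 5. It was 0.12, -0.02 and -0.38 in WT animals 2, 3 and 6. The genes that fell in both genotypes were Atp5g2, Atp5k, Ndufb7 and Ndufs8, and Sdhb rose in both.

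Ndufs8 stayed low at 24 h, with 11.08, 11.14 and 11.31 in Gch1fl/flTie2cre and 10.73, 10.81 and 11.23 in WT cells, 0.94 and 1.13 below 0 h (log2; limma adjusted p = 0.000165 and 2.5e-05). Atp5g2 stayed low as well, at 10.79, 10.51 and 10.06 in Gch1fl/flTie2cre and 10.48, 9.94 and 10.34 in WT cells, and fell by 1.07 and 1.25 from 0 h (limma adjusted p = 0.000201 and 4.26e-05). Atp5k, subunit e of the membrane part of complex V, fell by 0.90 and 1.23 (limma adjusted p = 0.00172 and 0.000101), but its second tested probe gave -0.32 and -0.35, which did not pass. Ndufb7, an accessory subunit, read 9.14, 8.75 and 8.70 at 24 h against 9.41, 9.55 and 9.59 at 0 h in Gch1fl/flTie2cre cells, and 8.25, 8.15 and 8.47 at 24 h against 9.71, 9.84 and 9.52 at 0 h in WT cells. It fell in both genotypes (-0.65 and -1.40, limma adjusted p = 0.00573 and 4.71e-06), and the call in Gch1fl/flTie2cre cells was lost without animal 4 or 5.

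Genes called against 0 h at 24 h in 1 genotype were Ndufb3 (1.14), Ndufs3 (0.82), Cox7a2l (0.69), Ndufb9 (0.66) and Ndufb11 in Gch1fl/flTie2cre cells. Ndufb11 was detected on only 1 of 3 Gch1fl/flTie2cre arrays at 24 h, so its value (-1.01) is uncertain in size. In WT cells they were Sdhd (0.76), Cox5a (0.74), Cox6a1 (0.62), Uqcrc1 (-0.77), Uqcr11 (-0.73) and Cox4i1 (-0.72). Uqcrc1 is a core protein of complex III and Cox4i1 the common isoform of the regulatory subunit 4 of complex IV. A call in 1 genotype and not in the other does not show that the responses differed: for 0 of 80 genes did the difference of responses pass at 2, 8 or 24 h (limma, adjusted over all probes), where 0, 0 and 0.0113% of all genes passed. At an unadjusted p under 0.05 the counts were 0, 1 and 7 of 80 (0, 1.25 and 8.75%), against 1.08, 1.96 and 5.51% of all genes. At 24 h the lowest adjusted p was 0.487, for Ndufb3 (0.84, 95% interval 0.28 to 1.39).

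Isoforms of complex IV that mark other tissues were mostly dim or below the detection filter. Cox4i2 (lung), Cox6b2 and Cox7b2 (testis) and Cox8b (heart and muscle) did not pass the filter. This does not show that they were absent, since Sdha, Ndufs1 and Uqcrfs1, subunits of complexes II, I and III, were detected on 0 arrays as well. Cox6a2, the heart and muscle form, read 6.78, 6.32 and 7.01 at 8 h and was detected there on 0 of 3 arrays in Gch1fl/flTie2cre cells, and rose to 8.36, 8.59 and 7.59 at 24 h, at least 2.31-fold. In WT cells Cox6a2 read 7.95, 7.50 and 8.11 at 24 h against 6.35, 6.91 and 7.20 at 8 h (1.04, limma adjusted p = 0.0188), and had fallen by 1.05 at 8 h against 0 h. Cox7a1, the muscle form of subunit 7a, Cox7a2, its liver form, and Cox6b1 did not pass in any comparison. Cox7a2 read 8.48 and 8.99 at 24 h in animals 5 and 6 and 9.88 to 10.20 in the other 4, and was picked out after its values were seen. Cox7a2l, a paralogue of Cox7a2, rose by 0.92 in Gch1fl/flTie2cre cells between 8 and 24 h (limma adjusted p = 0.0106). Ndufa4, first assigned to complex I, was at -0.53 and -0.52 at 8 h and stayed under the fold threshold.

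**Figure D3:**
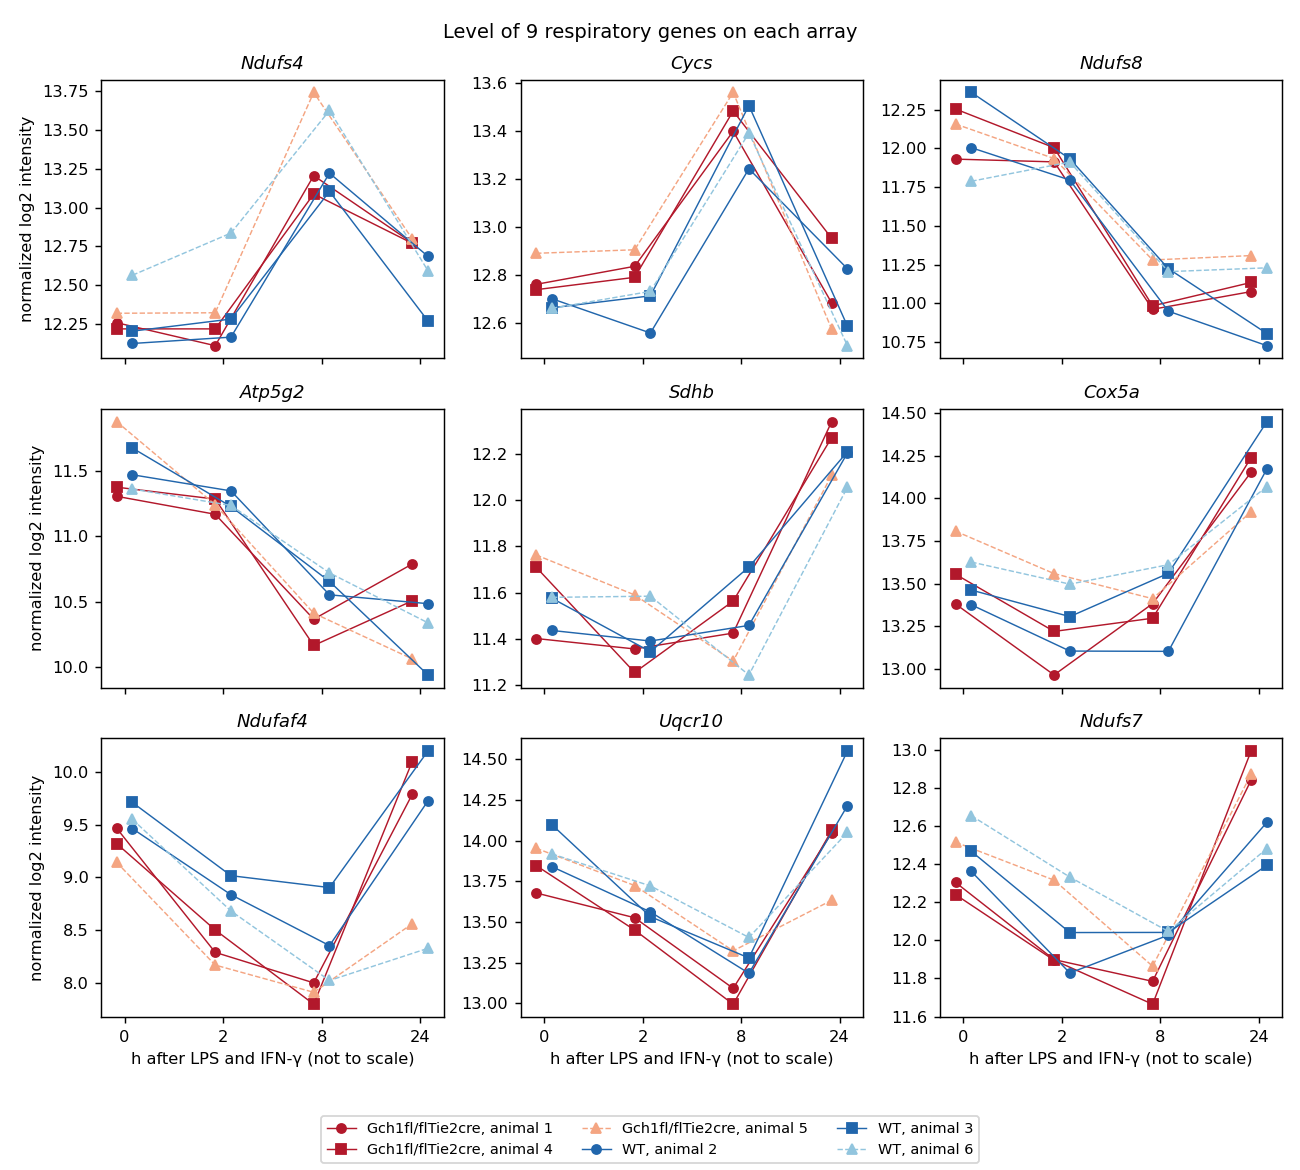
Normalized log2 intensity (vertical axis, its range set for each gene) of 9 genes on each of the 24 arrays against time (horizontal axis, h); red symbols are Gch1fl/flTie2cre and blue symbols WT, and lines join the arrays of 1 animal. Ndufs4 and Cycs peak at 8 h, with Cycs between 13.24 and 13.56 there, Ndufs8 and Atp5g2 stay low at 24 h, and Sdhb and Cox5a are highest at 24 h.

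The genotypes were compared at each time. None of the 80 genes passed at 0, 2, 8 or 24 h in limma, where 0.0225, 0.0225, 0.0225 and 0.338% of all genes passed. With a term for animals 5 and 6 against the other 4, 2 of the 80 passed at 24 h (Ndufv3 and Cox7a1), where 1.48% of all genes passed. At an unadjusted p under 0.05, 0, 0, 1 and 10 of 80 were counted, 0, 0, 1.25 and 12.5%, against 1.61, 2.22, 4.39 and 9.7% of all genes. The 95% interval of the difference lay wholly within 1.5-fold for 55, 60, 50 and 37 of the 80 genes at 0, 2, 8 and 24 h, and for the others the interval reached beyond that size. The median difference at 24 h was 0.08, with 48 genes above 0, and -0.02 over all genes. It was 0.03, 0.01 and 0.15 without animals 1, 4 and 5, and -0.01 without animal 6.

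The largest values at 24 h were found in complexes I and IV. Ndufv3, an accessory subunit of the NADH-oxidizing arm, read 13.57, 13.57 and 13.46 in Gch1fl/flTie2cre and 12.66, 12.52 and 13.0002 in WT cells. The genotypes did not overlap, with a difference of 0.81 (95% interval 0.34 to 1.27, limma adjusted p = 0.138), and its 2 other tested probes gave 0.79 and 0.64. Without animals 5 and 6 Ndufv3 was 0.98 higher and passed (limma adjusted p = 0.00903), the only one of the 80 that did. Ndufb3 read 12.18, 12.50 and 12.27 in Gch1fl/flTie2cre and 11.89, 11.52 and 11.54 in WT cells (0.67, 95% interval 0.25 to 1.09, limma adjusted p = 0.175), and Ndufb7 was at 0.57 (limma adjusted p = 0.219). Cox7a1 read 8.81, 9.51 and 9.79 in Gch1fl/flTie2cre and 8.38, 7.98 and 9.22 in WT cells, which overlapped (0.85, 95% interval 0.09 to 1.61, limma adjusted p = 0.446). Complexes I, II, III, IV and V had medians of 0.11, 0.06, -0.03, -0.02 and 0.01. All 5 core subunits of complex I lay above 0 (median 0.25), as did all 4 subunits of the stalk of complex V (median 0.29). In the F1 part of complex V, however, 4 of 5 lay below 0 (median -0.05). Of the assembly factors of complex I, 4 of 7 did (median -0.10), and of complex IV without its tissue isoforms 6 of 10 (median -0.13). No part of a complex was tested as a set. With array weights, which give arrays that fit poorly less influence and whose estimation stopped before convergence, 7 of the 80 passed at 24 h and 11 of the differences of responses did, where 12.5 and 8.23% of all genes passed.

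**Figure D4:**
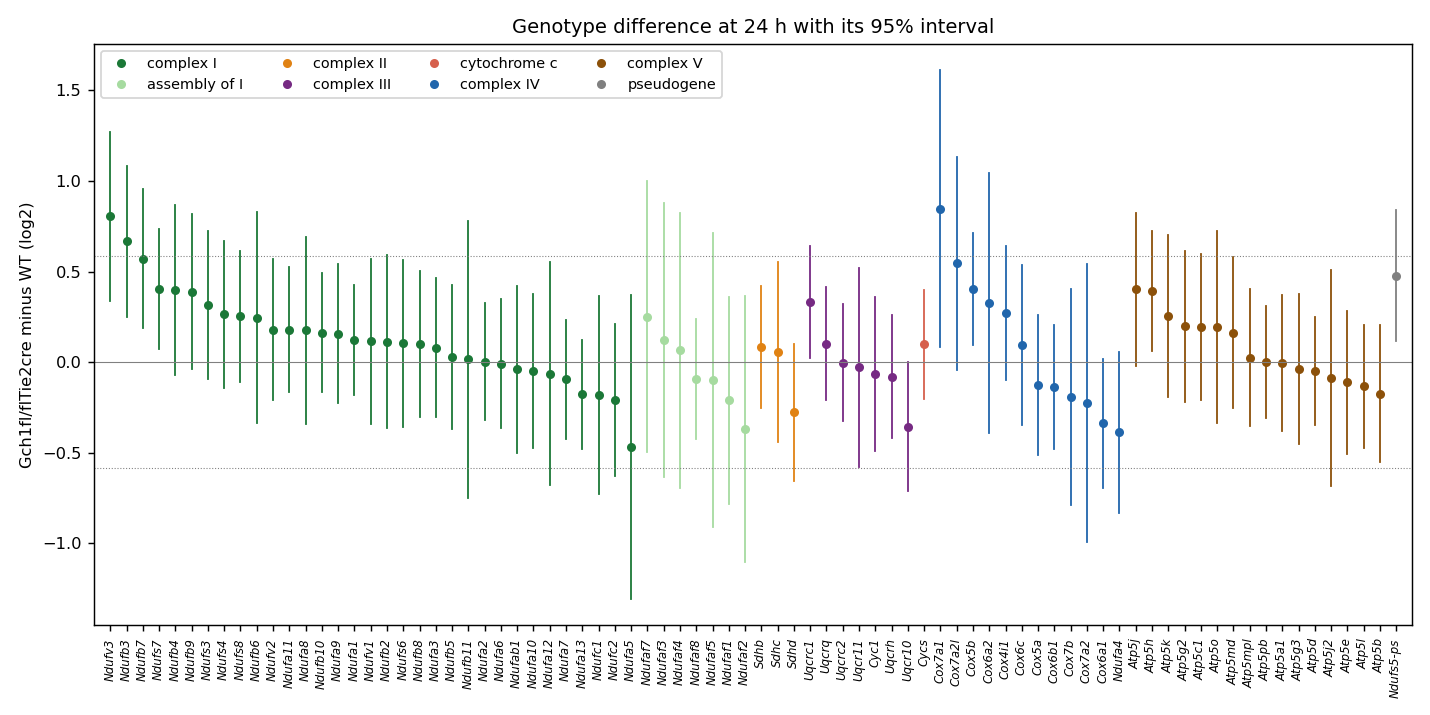
Difference between Gch1fl/flTie2cre and WT macrophages at 24 h (normalized log2 intensity, vertical axis) for each of the 80 genes (horizontal axis), with its 95% interval as a line and colours for the complexes; dotted lines mark the 1.5-fold limit. Ndufv3 (0.81) and Cox7a1 (0.85) have the highest values, and 10 of 80 intervals leave out 0.

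Ndufv3 was also the clearest case of probes that disagreed over time. At 8 h its brightest probe and 1 other were at -0.24 and -0.27 in Gch1fl/flTie2cre and -0.19 and -0.22 in WT cells, whereas the remaining probe rose by 0.94 and 0.75 (limma adjusted p = 0.00113 and 0.00681). Ndufv3 is known to give a short and a long form by splicing, but which form each probe reads is not given in the sources used here. Of the 28 genes with several tested probes, all probes had the same sign for 19 in Gch1fl/flTie2cre and 18 in WT cells at 8 against 0 h, and for 21 and 25 at 24 against 8 h. Between the genotypes the signs agreed for 16, 15, 14 and 20 of the 28 at 0, 2, 8 and 24 h. For the differences of responses they agreed for 13, 10 and 16 at 2, 8 and 24 h.

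The promoters of these genes are often described as carrying sites for NRF1, YY1, ETS and CREB factors, and since most members lay below 0 at 8 h their windows were searched. Promoter windows of RefSeq (build GRCm38.p6), from 250 bases before to 50 after the gene start, were found for 68 of the 80 genes. The letters searched, exactly and on both strands, were CGCATGCG for NRF1, AAGATGGCG for YY1, CCGGAAGT for ETS and TGACGTCA for CREB, and their matches overlapped each other in 0 of the 68. The NRF1 letters were in 12 of 68 windows (17.6%), against 2.77% of 17492 protein-coding genes. The YY1 letters were in 8 (11.8%, against 2.14%), the CREB letters in 4 (5.88%, against 2.54%) and the ETS letters in 4 (5.88%, against 5.69%). The 17492 genes were not limited to those detected on these arrays, as the 68 were, so that the sets also differ in this. A match describes letters and not a bound site. Shown here, with matches in capitals, are Cycs and Ndufs4, which rose at 8 h, and Atp5g2, Uqcr11 and Ndufs8, which fell.
Cycs (chr6:50566520-50566819, minus strand; CREB and NRF1 letters): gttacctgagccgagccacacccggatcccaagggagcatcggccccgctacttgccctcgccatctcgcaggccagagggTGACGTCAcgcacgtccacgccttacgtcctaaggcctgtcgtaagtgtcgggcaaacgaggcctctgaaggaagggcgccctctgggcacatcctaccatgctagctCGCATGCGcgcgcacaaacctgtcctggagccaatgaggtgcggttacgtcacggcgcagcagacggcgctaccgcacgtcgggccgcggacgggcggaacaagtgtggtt
Ndufs4 (chr13:114388045-114388344, minus strand; YY1 letters): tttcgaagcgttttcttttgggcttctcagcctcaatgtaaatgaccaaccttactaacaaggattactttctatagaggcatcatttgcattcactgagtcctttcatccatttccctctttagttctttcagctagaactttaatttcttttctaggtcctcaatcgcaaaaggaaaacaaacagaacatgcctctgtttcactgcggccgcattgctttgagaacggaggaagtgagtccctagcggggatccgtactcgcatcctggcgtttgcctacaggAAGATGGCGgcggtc
Atp5g2 (chr15:102670998-102671297, minus strand; NRF1 letters): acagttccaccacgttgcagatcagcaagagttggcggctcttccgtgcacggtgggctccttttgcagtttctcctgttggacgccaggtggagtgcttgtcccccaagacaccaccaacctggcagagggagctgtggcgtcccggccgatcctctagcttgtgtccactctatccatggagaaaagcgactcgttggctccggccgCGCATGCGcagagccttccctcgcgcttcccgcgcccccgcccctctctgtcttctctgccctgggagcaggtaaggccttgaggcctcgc
Uqcr11 (chr10:80406772-80407071, minus strand; ETS and NRF1 letters): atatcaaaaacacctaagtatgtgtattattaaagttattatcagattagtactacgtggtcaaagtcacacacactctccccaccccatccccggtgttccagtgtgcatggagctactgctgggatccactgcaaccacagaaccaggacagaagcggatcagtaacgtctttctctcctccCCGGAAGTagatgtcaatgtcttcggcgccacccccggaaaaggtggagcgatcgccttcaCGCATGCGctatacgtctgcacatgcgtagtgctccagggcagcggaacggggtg
Ndufs8 (chr19:3912725-3913024, minus strand; no match): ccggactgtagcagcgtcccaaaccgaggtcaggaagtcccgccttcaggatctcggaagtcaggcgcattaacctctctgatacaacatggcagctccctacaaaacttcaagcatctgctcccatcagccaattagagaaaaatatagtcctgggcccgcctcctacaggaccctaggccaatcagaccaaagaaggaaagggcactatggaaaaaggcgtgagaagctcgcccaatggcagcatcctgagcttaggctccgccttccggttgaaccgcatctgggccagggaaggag
The NRF1 letters were thus held both by Cycs, which rose, and by Atp5g2 and Uqcr11, which fell.

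Other genes of the pathway were counted from lists. Of 35 tested assembly factors outside the symbol rule, 13 rose and 1 fell in Gch1fl/flTie2cre cells at 24 h against 0 h, and 15 rose and 1 fell in WT cells, with medians of 0.41 and 0.48. This share of genes that rose was above that of all genes (17.5 and 17.7%), while 5 and 4 of the 80 genes chosen by symbol had risen. The lists were not tested against each other. Tmem126b, which helps to build the membrane arm of complex I, rose by 1.58 and 1.33 (limma adjusted p = 0.000104 and 0.000536). Surf1, which acts in complex IV assembly and is mutated in Leigh syndrome, rose by 1.14 in both. At 8 h, 7 of the 35 rose and 6 fell in Gch1fl/flTie2cre cells, and 5 rose and 5 fell in WT cells. Their medians were -0.03 and 0.01. Over all genes, 15.8% rose and 19.2% fell at 8 h in Gch1fl/flTie2cre cells, and 14.7% rose and 16.6% fell in WT cells. Among those that rose was Sco1, a copper carrier to complex IV, by 2.93 and 2.61 (limma adjusted p = 3.34e-07 and 1.39e-06).

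For the lists that follow, the shares over all genes at 24 h against 0 h were 17.5% higher and 15.7% lower in Gch1fl/flTie2cre cells. In WT cells they were 17.7% higher and 15.2% lower. Of 18 regulators of respiratory genes, 4 rose and 2 fell in Gch1fl/flTie2cre cells at 24 h, and 5 rose and 0 fell in WT cells. The medians of the 18 were 0.05 and -0.13. Sirt3, the main deacetylase of mitochondria, rose by 2.21 and 2.58 (limma adjusted p = 2.72e-07 and 4.32e-08). Nrf1, whose protein binds the letters searched above, fell by 0.73 in Gch1fl/flTie2cre cells (limma adjusted p = 0.00558). Of 9 genes of coenzyme Q synthesis 2 and 1 rose and 0 fell, and of 12 carriers, channels and uncoupling proteins 1 and 2 rose and 1 and 3 fell, in Gch1fl/flTie2cre and WT cells. None of these 4 lists held a gene that differed between the genotypes at 24 h past the threshold, where 0.338% of all genes did. At that share, lists of this size would seldom hold a call.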

How the data were processed

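Per the labels and the study's methods, RNA of 24 macrophage samples was hybridised to 24 Illumina MouseWG-6 v2 arrays. The authors deposited GenomeStudio probe intensities without normalization, each with a detection p-value, and log2 values that they had normalized by variance stabilization (VSN, with limma in R 2.14). The intensities were analysed here, and the deposited log2 values served as an alternative.

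In limma 3.58.1 (R 4.3.3, statmod 1.5.0) the intensities were background-corrected with the detection p-values (normexp, offset 16), quantile-normalized and put on the log2 scale. Probes detected at p under 0.01 on at least 3 of 24 arrays were kept, 16498 of 45281. A model of 8 group means was fitted with the animal as a random block (correlation 0.124), with Benjamini-Hochberg adjustment across the 16498 probes. A call needs an adjusted p under 0.05 and a change above 1.5-fold. SEs, 95% intervals and p-values come from this fit. In it the 8 groups share a single estimate of the spread for each probe, moderated across probes. They thus rest on the spread within groups, pooled over all 24 arrays, and not on the 3 animals of a group alone. Gene symbols come from GEO's platform annotation, updated through RefSeq, and of the probes kept 14050 had 1 symbol, 8 had several and 2440 had none. The number of arrays and the brightness of a probe limit the precision. The script was tested on simulated data.

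The labels tie the 4 times to 1 animal each, which is the basis of the block. The study's methods call the data paired, but which animals pair across genotypes is not given in the sources used here, so no such pairs were fitted. The median correlation of deviations within an animal was 0.165 to 0.34. Members were counted in full. Those named are complex II, Cyc1 and Cycs, the up to 3 largest calls of each complex, isoform sets, and calls against the direction of their complex, with other probes and genes named beside them after their values were seen. The members, rule and lists were chosen with earlier results of these data known. Alternatives covered normalization, the probe filter, the block, array weights, the probe rule, the fold limit and leaving out each animal. Leaving out animals 5 and 6 together was chosen after seeing the data.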

Additional observations from a re-analysis of the deposited data

How the results depend on the processing

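Of the 104 single changes called, 0 changed sign under any alternative, and between 67 (deposited VSN values) and 104 (a stricter probe filter) kept their call. Counts of calls moved more, in the order Gch1fl/flTie2cre then WT. At 8 against 0 h, 19 and 16 calls became 11 with deposited values in Gch1fl/flTie2cre, 30 without a fold limit in WT, and 15 to 20 and 10 to 19 when 1 animal was left out, lowest in WT without animal 3. At 24 against 8 h, 25 and 21 calls became 38 and 32 with array weights and 40 and 32 without animals 5 and 6, 10 in WT with deposited values, and 11 to 33 and 11 to 27 with 1 animal left out (16 and 11 without animals 1 and 4, 13 and 11 without animals 2 and 3). At 24 against 0 h, 10 calls in Gch1fl/flTie2cre became 21 with array weights and 16 without animals 5 and 6 or without a fold limit, and with 1 animal left out the counts were 6 to 14 and 7 to 11, lowest without animals 4 and 3.

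At 2 h the single call in each genotype was 2 with deposited values, 2 where animals 5 and 6 had a term of their own, 0 without background correction, 2 and 4 with array weights or without animals 5 and 6, 2 and 3 with the mean of a gene's probes, and 0 to 2 with 1 animal left out. In Gch1fl/flTie2cre it was 2 without a fold limit and 0 without a probe filter. Without the animal as a replicate block, the 2 h call in Gch1fl/flTie2cre was lost (0), and the other counts were within 1.5 times those with the block (WT 15 at 8 h, Gch1fl/flTie2cre 9 at 24 h). The genotype count at 24 h, 0, was 7 with array weights, 2 with that term and 1 without animals 5 and 6, and the difference of responses at 24 h, 0, was 11 with array weights. The term, animals 5 and 6 against the other 4, was defined from the data, and the array weights stopped before convergence. The causes were not tested.

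Medians of complexes gave 1440 values over 16 settings, of which 66 moved beyond the spread between animals and 134 changed sign, 27 of them among those 66. At 8 against 0 h the 1 median that changed sign was complex II in WT, and at 24 against 8 h complex V in WT. The others were comparisons between genotypes, 24 against 0 h, and complexes IV and V in Gch1fl/flTie2cre at 2 h. Among the sign changes were the WT median over all members at 24 against 0 h (0.09 without animal 6), complex V at 24 against 0 h (0.08 in Gch1fl/flTie2cre without animal 5 and 0.06 in WT without animal 6), complex V in WT at 24 against 8 h (-0.16 with deposited values), and the genotype difference of complex IV at 24 h (0.15 with deposited values, 0.20 with array weights and 0.21 without animal 5).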
